A study of Homo sapiens with 6 samples.

Results

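The HOX genes are the homeobox genes of 4 chromosomal clusters, named HOXA to HOXD, and were taken here as all gene symbols made of HOX, a cluster letter and a number. This gave 39 members among 23710 symbols in the count tables: 11 in HOXA on chromosome 7, 10 in HOXB on chromosome 17, 9 in HOXC on chromosome 12 and 9 in HOXD on chromosome 2. RNA was sequenced from treated K562 cells, which had received 3FM-dC at 20 µM together with THU at 2 mM over 24 h (3 libraries), and from cells given the solvent of both compounds, DMSO, alone (3 libraries). K562 is an established human leukaemia line (chronic myelogenous) that makes embryonic and fetal globins, and the labels name both compounds by abbreviation only. Since THU was absent from the DMSO cells, effects of 3FM-dC and of THU cannot be told apart.

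HOX genes encode transcription factors that give cells their position along the body axis, and within a cluster they lie in the order in which they act from head to tail. Genes with the same number in different clusters are paralogues, copies of 1 ancestral gene. In blood, HOXA and HOXB genes are active in stem and progenitor cells and are shut down as cells mature, and HOXA9 with its partner MEIS1 drives many acute leukaemias. Polycomb complexes keep the clusters silent through methylation of histone H3 at lysine K27, and trithorax complexes built around MLL keep them active.

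The 3 treated libraries held 19052821, 20176827 and 20737363 counts in genes, and the 3 DMSO libraries 18610733, 18408826 and 22750278. The detection floor was set at 3 counts, which is 0.136 to 0.168 CPM (counts scaled to the size of the library) depending on the library. The labels do not say whether replicates were separate cultures, so the spread behind each p-value may be technical. Treated replicate 3 had the highest share of reads in no annotated feature, 13.1%, against 10.9% to 12.1% in the other 5 libraries. All 13 markers chosen for K562, among them GATA1, BCR and ABL1, exceeded 1 CPM, and their summed level ran from 4300 to 4510 CPM in treated and from 7910 to 8080 CPM in DMSO libraries. The lower sum was carried by globins and TFRC, with HBE1 at a mean of 1325 CPM in treated and 2666 CPM in DMSO cells, while ABL1 averaged 354 CPM in treated and 329.8 CPM in DMSO cells, and TAL1 211 CPM in treated and 196 CPM in DMSO cells. The part of this lower sum in the results below was not tested, and in bulk RNA fewer cells of a kind cannot be told apart from less RNA per cell. Of the markers of other lineages, 2 of 6 lymphoid, 2 of 7 fibroblast and endothelial, 1 of 4 epithelial and 0 of 3 neural genes exceeded 1 CPM. Their summed levels ran from 9.57 to 11.3 CPM in treated and 7.88 to 8.99 CPM in DMSO libraries for the lymphoid list, and from 6.91 to 11.5 CPM in treated and 10.4 to 13.9 CPM in DMSO libraries for the fibroblast and endothelial list. The epithelial list, carried by EPCAM, summed to 60.6 to 63.7 CPM in treated and 102 to 103 CPM in DMSO libraries, while KRT5, KRT14, MS4A1, CD2, PDGFRA and CDH5 had no count in any library.

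K562 cells expressed the HOXB cluster, a small amount of HOXC, and next to nothing of HOXA and HOXD. With both groups pooled, HOXB supplied 97.2% of all 63132 HOX counts, HOXC 2.65%, HOXD 0.113% and HOXA 0.0143%. Most HOXD counts came from treated cells, with 9, 23 and 35 in treated and 2, 0 and 2 in DMSO libraries. With a mean of at least 1 CPM in either group taken as expressed, 8 of 10 HOXB and 3 of 9 HOXC genes were expressed, and none of the HOXA or HOXD genes. Among these, HOXC4 reached 1 CPM in treated cells only (1.45 CPM in treated, 0.895 CPM in DMSO cells). Of the 39 members, 14 had no count in any library, 9 had between 1 and 9 counts in their highest library, and 16 had at least 10 counts in at least 1 library.

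**Figure D1:**
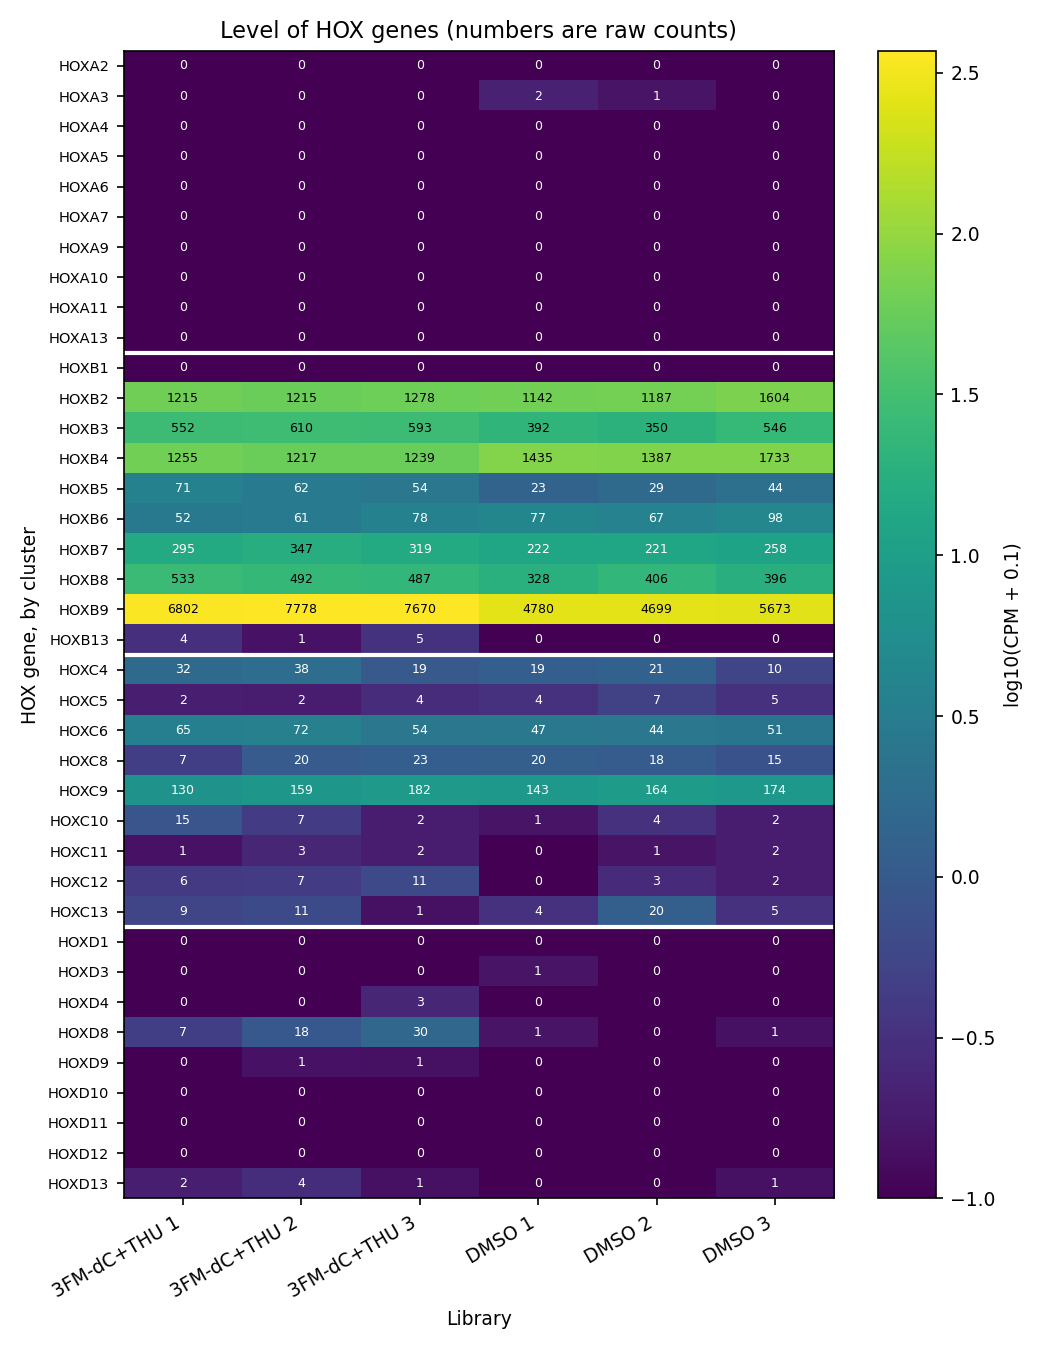
Level of HOX genes (rows, by cluster) in every library (columns). Colour is log10(CPM + 0.1) and the printed numbers are raw counts. The bright rows HOXB2 to HOXB9 reach 7778 counts, while HOXA4 to HOXA13 stay at 0 counts in every library.

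The silent part of the family is shown first by sequence, because 1 of its members, HOXD8, had 55 counts in treated and 2 in DMSO libraries. RefSeq start regions, from 250 bases before to 50 bases after the start on GRCh38.p14, were at hand for 20 members. They are given 5′ to 3′ with each CG dinucleotide, the site of DNA methylation and of TET enzymes, in capitals. HOXD8 (chr2:176129455-176129754, plus strand) is the gene of the silent clusters with the most treated reads. Of other HOXD genes, HOXD13 had 7 treated and 1 DMSO counts, HOXD4 3 and 0, HOXD9 2 and 0, and HOXD3 0 and 1. HOXD1 (chr2:176188418-176188717, plus strand) is a CG-rich gene of the same cluster with no read, though HOXD3 and HOXD4 lie between it and HOXD8. HOXB1 (chr17:48530962-48531261, minus strand) is the HOXB gene with none.
HOXD8: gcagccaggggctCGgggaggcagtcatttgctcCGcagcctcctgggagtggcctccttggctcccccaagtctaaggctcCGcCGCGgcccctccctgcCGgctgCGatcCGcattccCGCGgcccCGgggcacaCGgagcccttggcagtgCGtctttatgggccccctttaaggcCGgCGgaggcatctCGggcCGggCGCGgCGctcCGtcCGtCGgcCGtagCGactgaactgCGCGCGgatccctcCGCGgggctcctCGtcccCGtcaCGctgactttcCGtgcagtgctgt
HOXD1: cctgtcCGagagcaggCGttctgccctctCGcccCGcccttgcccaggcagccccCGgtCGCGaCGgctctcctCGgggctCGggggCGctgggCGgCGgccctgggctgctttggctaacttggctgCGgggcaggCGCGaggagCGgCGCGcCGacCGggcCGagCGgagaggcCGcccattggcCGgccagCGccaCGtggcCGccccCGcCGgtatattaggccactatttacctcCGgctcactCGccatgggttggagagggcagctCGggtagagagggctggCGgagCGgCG
HOXB1: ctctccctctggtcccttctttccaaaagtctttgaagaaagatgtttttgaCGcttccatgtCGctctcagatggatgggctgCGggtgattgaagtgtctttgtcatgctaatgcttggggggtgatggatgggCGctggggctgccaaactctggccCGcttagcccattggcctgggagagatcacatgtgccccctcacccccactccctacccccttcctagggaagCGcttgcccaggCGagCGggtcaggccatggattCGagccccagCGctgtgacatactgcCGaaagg
The HOXD8 window holds 34 CG dinucleotides, a number reached by 15.6% of 35114 start regions in the table, where the median was 14. HOXD1 holds 36, reached by 12.7%, and HOXB1 holds 11, reached by 54.7%. Of 5 short motifs searched on both strands, HOXD8 holds TTTATG, bound by caudal factors and present in 10.6% of all start regions, and HOXB1 holds TGATTG, bound by PBX proteins and present in 12.5%. TGACAG for MEIS proteins, AGGTCA for retinoid receptors and AGATAA for GATA factors were found in none of the 3 windows. They occur in 15.8%, 13.8% and 10.3% of all start regions. These are matches of letters only, with no overlapping motifs, and DNA methylation was not measured.

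Treatment was followed by small shifts within HOXB, upward for 5 genes and downward for 2. HOXB3, HOXB5, HOXB7, HOXB8 and HOXB9 rose and HOXB2 and HOXB4 fell (edgeR quasi-likelihood test, Benjamini-Hochberg adjusted p under 0.05). In all, 7 of the 12 HOX genes that passed the count filter changed, against a background of 66.4% of 12339 tested genes. By direction the background was 33.8% higher and 32.7% lower, so 7 of 12 is near the background. Of the 12, 10 passed the filter in both groups, HOXC4 passed through the treated libraries only and HOXC8 through the DMSO libraries only. The values of 8 of the 12 did not overlap between groups, against 70.0% of all tested genes. The median log2 fold change of the 12 was 0.33 and that of all tested genes 0.01. Taken without sign, the median log2 fold change was 0.36 for the 12 and 0.33 for all tested genes. No HOX gene changed by 2-fold or more among the 12, while 12.7% of all tested genes were called at such a size. With only 12 genes this difference says little, and it was not tested.

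**Figure D2:**
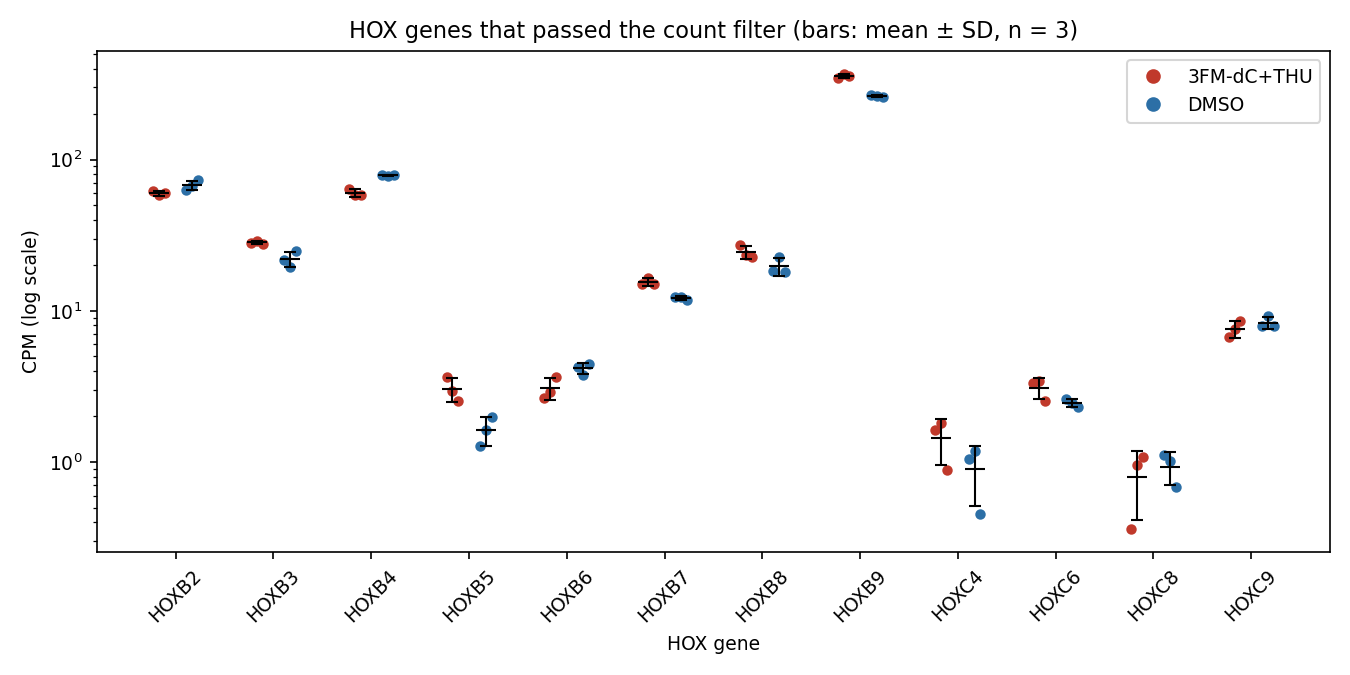
CPM (log axis) of the 12 HOX genes that passed the count filter. Points are libraries, with 3FM-dC+THU left of DMSO, and black bars are mean ± SD of 3 libraries. HOXB9 lies above 348 CPM in each treated library and below 266 CPM in each DMSO library.

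HOXB9, a gene of the posterior end of the cluster that shapes the thoracic skeleton in mice, was by far the most abundant HOX transcript. It had 6802, 7778 and 7670 counts in treated and 4780, 4699 and 5673 counts in DMSO libraries, or 348, 370.5 and 360 CPM against 265, 263 and 258 CPM. Every treated library lay above every DMSO library. Its level averaged 359 ± 11.0 CPM in treated and 262 ± 4.02 CPM in DMSO cells (SD, n = 3 each), a log2 fold change of 0.46 (SE 0.04, edgeR adjusted p = 7.57e-12). HOXB9 alone held 63.1% to 66.0% of HOXB counts in treated and 54.8% to 56.9% in DMSO libraries. The rest of the cluster summed to 195 ± 7.71 CPM in treated and 206 ± 5.94 CPM in DMSO cells (SD, n = 3 each) (chosen after values were seen). For the whole cluster the sums were 554 ± 6.14 CPM in treated and 468 ± 1.97 CPM in DMSO cells (log2 ratio 0.24, given without a test).

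HOXB4, whose forced expression expands blood stem cells, fell. Its CPM was 64.3, 58.0 and 58.1 in treated and 79.6, 77.7 and 78.7 in DMSO libraries, with no overlap. The mean was 60.1 ± 3.62 CPM in treated and 78.7 ± 0.935 CPM in DMSO cells, a log2 fold change of -0.39 (SE 0.05, edgeR adjusted p = 4.38e-07). HOXB2, a patterning gene of the hindbrain, was the other gene that fell. It had 62.2, 57.9 and 59.9 CPM in treated and 63.4, 66.5 and 72.8 CPM in DMSO libraries, groups that did not overlap but lay close together (log2 fold change -0.17, SE 0.06, edgeR adjusted p = 0.0107). The call of HOXB2 did not hold with libraries scaled by total counts (adjusted p = 0.211), against a minimum fold of 1.2 (adjusted p = 1) or without DMSO replicate 3 (adjusted p = 0.117). Over all alternatives its adjusted p ran from 0.00318 to 1.

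HOXB3, which lies between HOXB2 and HOXB4, moved opposite to both. Its CPM was 28.3, 29.1 and 27.8 in treated and 21.7, 19.6 and 24.8 in DMSO libraries, without overlap (log2 fold change 0.36, SE 0.09, edgeR adjusted p = 0.000559). In GENCODE release 29 the exons of HOXB3 and HOXB4 overlap in part on the same strand, with 6.7% of HOXB3 and 16.1% of HOXB4 exonic bases shared with some other gene. The antisense RNAs HOXB-AS1 and HOXB-AS3 overlap HOXB3 on the other strand. The strand setting of the counting is not given in the sources used here, so reads of a gene and its antisense partner could not be told apart, and how shared bases bear on these values was not tested.

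The genes with the next numbers also split by direction. HOXB5, whose mouse counterpart marks long-term blood stem cells, had 71, 62 and 54 counts in treated and 23, 29 and 44 counts in DMSO libraries. This was 3.64, 2.95 and 2.53 CPM against 1.28, 1.63 and 2.00 CPM, without overlap, and HOXB5 had the largest log2 fold change of the tested HOX genes (0.88, SE 0.28, edgeR adjusted p = 0.00677). HOXB6, which expands myeloid precursors when forced in mouse marrow, had 2.66, 2.91 and 3.66 CPM in treated and 4.27, 3.76 and 4.45 CPM in DMSO libraries. Its groups did not overlap, yet it did not pass the test (log2 fold change -0.43, SE 0.22, edgeR adjusted p = 0.0765). Without treated replicate 3 it did (adjusted p = 0.0448, over a range of 0.0448 to 0.211). Part of HOXB6 (14.4% of exonic bases) lies under HOXB-AS3, which had 27, 8 and 8 counts in treated and 16, 7 and 8 counts in DMSO libraries.

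HOXB7 and HOXB8 both rose. HOXB7, often overexpressed in carcinomas, had 15.1, 16.5 and 15.0 CPM in treated and 12.3, 12.4 and 11.7 CPM in DMSO libraries (log2 fold change 0.36, SE 0.11, edgeR adjusted p = 0.00399). HOXB8, which blocks myeloid maturation when overexpressed in mouse cells, had 27.3, 23.4 and 22.8 CPM in treated and 18.2, 22.8 and 18.0 CPM in DMSO libraries (log2 fold change 0.32, SE 0.10, edgeR adjusted p = 0.00480). The groups of HOXB7 lay apart, while for HOXB8 the lowest treated library and DMSO replicate 2 were almost level. Against a minimum fold of 1.2 HOXB5, HOXB9 and HOXB4 passed, 3 of 12, with a background of 38.6%. HOXB3, HOXB7 and HOXB8 did not pass it (adjusted p = 0.107, 0.152 and 0.227), over ranges of 3.1e-05 to 0.107 for HOXB3, 0.000496 to 0.152 for HOXB7 and 0.000393 to 0.227 for HOXB8.

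**Figure D3:**
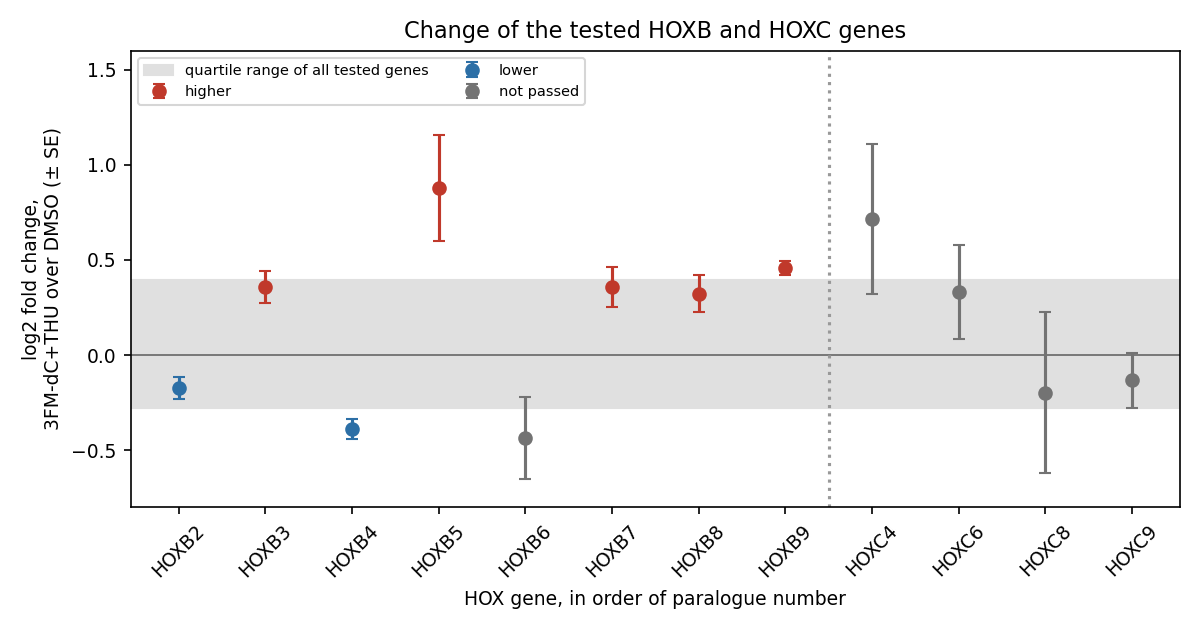
Log2 fold change, 3FM-dC+THU over DMSO, with SE, of the tested HOXB and HOXC genes in order of paralogue number. The grey band spans the quartiles of all tested genes (-0.28 to 0.39). HOXB2 (-0.17) and HOXB4 (-0.39) fell, HOXB5 (0.88) has the largest value, and the 4 HOXC genes did not pass.

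Ratios within a library need no scaling between libraries, but show only how a pair of genes moved relative to each other. Both pairs below were chosen after their values were seen. Each joins a gene that rose with a gene that fell, from the same counts, so their separation is no support of its own. There were 5.42, 6.39 and 6.19 HOXB9 reads per HOXB4 read in treated libraries, against 3.33, 3.39 and 3.27 in DMSO libraries. For HOXB3 the count per HOXB4 read was 0.440, 0.501 and 0.479 in treated and 0.273, 0.252 and 0.315 in DMSO libraries. Neither ratio overlapped between groups, and with 3 libraries a group an exact permutation test could not have passed 0.05, so none is given.

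Divided by exonic length in GENCODE (RPKM, the CPM per kilobase of exon), levels could be ranked between genes, on the assumption that the counted exons were the same. HOXB9 led with 139 ± 4.27 RPKM in treated and 102 ± 1.56 RPKM in DMSO cells, followed by HOXB2 with 38.4 ± 1.40 RPKM in treated and 43.3 ± 3.08 RPKM in DMSO cells. HOXB4 had 16.0 ± 0.962 RPKM in treated and 20.9 ± 0.249 RPKM in DMSO cells. Next came HOXB8 (13.5 ± 1.33 RPKM in treated, 10.8 ± 1.48 RPKM in DMSO cells) and HOXB7 (11.3 ± 0.632 RPKM in treated, 8.85 ± 0.271 RPKM in DMSO cells). The libraries of these 5 genes did not overlap between neighbours in the order in either group. HOXC9 followed with 4.87 ± 0.601 RPKM in treated and 5.36 ± 0.474 RPKM in DMSO cells. HOXC9 and HOXB3 overlapped in treated libraries, as did HOXB6 with HOXB5, HOXC6 with HOXC4 and HOXC4 with HOXC8. In DMSO libraries HOXB5 overlapped HOXC6 and HOXC8 overlapped HOXC4.

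HOXC genes were expressed at a low level, and no difference between groups passed the test. The cluster summed to 13.7, 15.2 and 14.0 CPM in treated and 13.2, 15.8 and 12.1 CPM in DMSO libraries, and the groups overlapped. HOXC9, the paralogue of HOXB9, had 130, 159 and 182 counts in treated and 143, 164 and 174 counts in DMSO libraries. Its log2 fold change was -0.13 (SE 0.14, edgeR adjusted p = 0.433) with a 95% interval of -0.42 to 0.15. That interval does not reach the 0.46 of HOXB9, but the difference between the 2 paralogues was not tested.

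HOXC6 had 3.33, 3.43 and 2.53 CPM in treated and 2.61, 2.47 and 2.32 CPM in DMSO libraries (log2 fold change 0.33, edgeR adjusted p = 0.242, 95% interval -0.15 to 0.81). HOXC4 had 32, 38 and 19 counts in treated and 19, 21 and 10 in DMSO libraries (log2 fold change 0.72, edgeR adjusted p = 0.114, 95% interval -0.06 to 1.49). HOXC8 had 7, 20 and 23 counts in treated and 20, 18 and 15 in DMSO libraries (log2 fold change -0.20, edgeR adjusted p = 0.698, 95% interval -1.03 to 0.63). All 3 overlapped between groups. HOXC4, HOXC5 and HOXC6 share a first exon in some transcripts, and RefSeq gives HOXC4 and HOXC5 the same start region, so reads there could be split or lost between them.

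Below the count filter HOXD8 stood out, a gene of the HOXD cluster that was near silence in DMSO cells. It had 7, 18 and 30 counts in treated and 1, 0 and 1 counts in DMSO libraries, without overlap. Over the groups this was 55 counts against 2, a ratio of 25.7 on scaled library sizes (exact 95% binomial interval 6.8 to 218, counting error only). The treated libraries differed widely among themselves, with the highest count in replicate 3, the library with most reads in no feature, whose part in the result was not tested. Without replicate 3 the ratio was 17.9 (4.45 to 156), and it ran from 17.8 to 35.5 over the 6 libraries left out in turn. When every gene with a count was kept, HOXD8 rose by 4.43 on the log2 scale (edgeR adjusted p = 9.43e-07, over a range of 9.43e-07 to 0.000584 in the 5 settings that tested it). In 4 of these settings, each without 1 library, HOXD8 passed the count filter through its treated libraries only, so those values are no support of their own. Its mean level stayed low, at 0.874 ± 0.524 CPM in treated and 0.0336 ± 0.0296 CPM in DMSO cells (SD, n = 3 each). Of 9330 symbols with at most 2 counts in all DMSO libraries, 41 (0.439%) had 55 or more treated counts. Both limits are the totals of HOXD8 itself, so its place among the 41 was given in advance. The 9330 include symbols without a count in any library, which lowers the share. Among HOX genes 21 were as close to silence, of which 7 had a count in any library, and HOXD8 was the one to reach 55 treated counts.

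**Figure D4:**
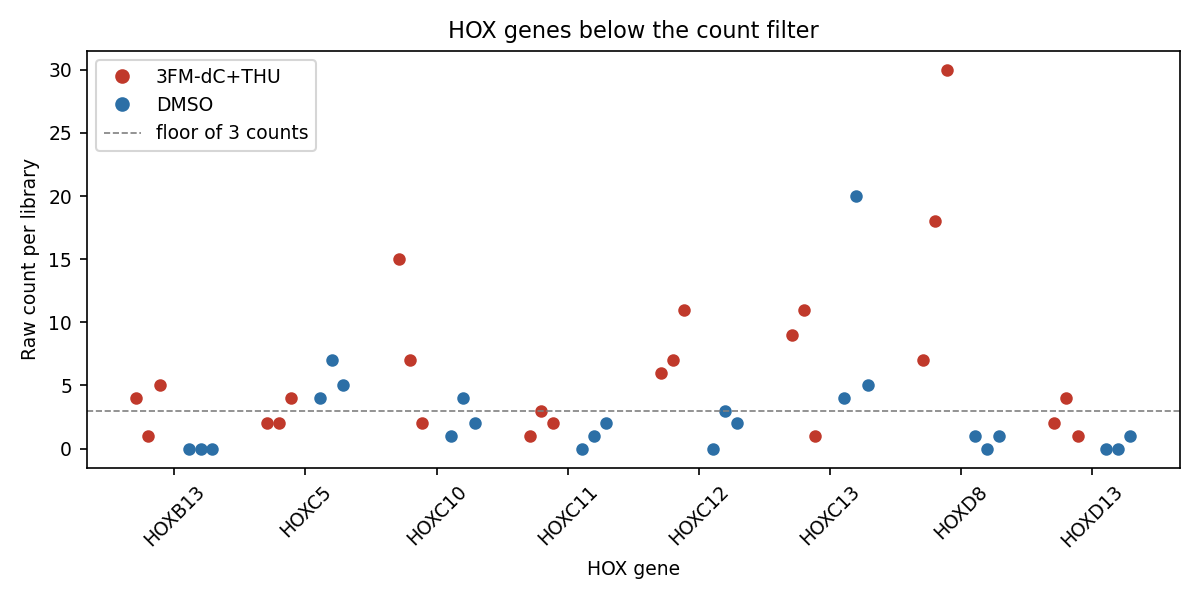
Raw counts per library (vertical axis) of 8 HOX genes below the count filter, with 3FM-dC+THU left of DMSO for each gene. The dashed line is the floor of 3 counts. HOXD8 has 7 to 30 counts in treated and 0 or 1 in DMSO libraries.

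Other weakly read members rested on few counts. The binomial intervals below cover counting error only and leave out the spread between libraries. HOXC12 had 6, 7 and 11 counts in treated and 0, 3 and 2 in DMSO libraries, a ratio of 4.49 (exact 95% binomial interval 1.68 to 15.1), with every treated library above every DMSO library. With each library left out in turn the HOXC12 ratio ran from 3.09 (1.16 to 10.4) without DMSO replicate 1 to 7.77 (1.93 to 67.8) without DMSO replicate 2. HOXC10, a gene of the hindlimb level of the spinal cord, had 15, 7 and 2 counts in treated and 1, 4 and 2 in DMSO libraries, which overlapped (ratio 3.21, interval 1.34 to 8.82). Without treated replicate 1 the HOXC10 ratio was 1.76 (0.583 to 5.56), and without DMSO replicate 2 it was 5.18 (1.57 to 26.9). HOXB13, known from the prostate, had 4, 1 and 5 counts in treated libraries and none in DMSO libraries, which is at the floor, so no fold is given.

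HOXC13, a hair follicle gene, had 9, 11 and 1 counts in treated and 4, 20 and 5 in DMSO libraries. With every counted gene kept, 25 HOX genes could be tested and 10 changed, against a background of 49.0% of 17781 genes. HOXB13 (adjusted p = 0.0135), HOXC12 (0.0348) and HOXD8 were the 3 added to the 7. In all, 8 of the 25 were higher there, against 25.5% of all genes in that fit. HOXC10 did not pass there (edgeR adjusted p = 0.0840). HOXC5, HOXC11, HOXD13, HOXD4, HOXD9, HOXD3 and HOXA3 had at most 7 counts in any library and did not pass either.

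HOXA, the cluster of HOXA9 and of many acute leukaemias, was not detected beyond stray reads. HOXA3 had none in treated and 2, 1 and 0 in DMSO libraries. No read was assigned to 9 of the 11 HOXA genes in any of the 6 libraries, a result that permits a level of at most 0.168 CPM in each, nor to HOXB1, HOXD1, HOXD10, HOXD11 or HOXD12. HOTAIR, a noncoding RNA transcribed antisense within HOXC, had 2, 7 and 3 counts in treated and none in DMSO libraries, and HOTAIRM1 of HOXA had 1, 4 and 0 in treated and none in DMSO libraries. Of 29 noncoding RNAs listed for the clusters, 18 had a row and none passed the count filter. The genes MIR10A and MIR196A1 within HOXB had at most 3 counts in a library.

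HOX proteins bind DNA with partners of the TALE class, the PBX, MEIS and PKNOX proteins, and 6 of 9 of these were tested. MEIS1, the leukaemia partner of HOXA9, fell, and is named here for that role, outside the naming rule and after its values were seen (4.86 ± 0.795 CPM in treated and 7.52 ± 0.606 CPM in DMSO cells, log2 fold change -0.63, edgeR adjusted p = 0.00167). PBX2, the most abundant partner, had 187 ± 5.56 CPM in treated and 212 ± 8.32 CPM in DMSO cells (log2 fold change -0.18, edgeR adjusted p = 0.000405), and with total counts it did not pass (adjusted p = 0.0551). Against a minimum fold of 1.2 the adjusted p of PBX2 was 1. PBX3 and MEIS3 rose, with log2 fold changes of 1.36 and 1.93, at levels of 2.33 ± 0.177 and 1.46 ± 0.319 CPM in treated and 0.914 ± 0.363 and 0.377 ± 0.195 CPM in DMSO cells. MEIS3 passed the count filter through its treated libraries only. The remaining tested members, MEIS2 and PKNOX1, did not pass (log2 fold changes -0.08 and 0.08). The caudal genes CDX1, CDX2 and CDX4, which act upstream of HOX genes, had a single count among them in all libraries.

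Regulators on the active and the silent side of HOX chromatin went both ways. Over the lists of cofactors, MLL and trithorax, Polycomb, CTCF and cohesin, and retinoid genes, 55 of 81 tested genes changed, near the background of 66.4%. Of 24 listed MLL and trithorax genes 21 were tested, of which 5 rose and 9 fell, with a median log2 fold change of -0.10. The background by direction was 33.8% higher and 32.7% lower. KDM6B, which removes the Polycomb mark, rose (86.7 ± 5.04 CPM in treated and 33.5 ± 1.45 CPM in DMSO cells, log2 fold change 1.37, edgeR adjusted p = 1.34e-17). PSIP1, which tethers MLL to chromatin, rose by 0.72 on the log2 scale. ASH2L, a core subunit of MLL complexes, fell by 0.63 on the log2 scale, and MEN1, which encodes the MLL partner menin, fell by 0.38.

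Of 33 Polycomb genes, all tested, 6 rose and 14 fell (median -0.09), against a background of 33.8% higher and 32.7% lower. PHC2, a subunit of the second Polycomb complex, rose (109.7 ± 3.05 CPM in treated and 80.6 ± 3.39 CPM in DMSO cells, log2 fold change 0.44, edgeR adjusted p = 5.31e-09). PHF19, an accessory protein of the methylating complex, fell by 0.38 on the log2 scale. The catalytic subunit gene EZH2 rose by 0.22, while its partner genes EED and SUZ12 had log2 fold changes of -0.41 and -0.18. EZH2, EED, SUZ12 and MEN1 are named for their roles, outside the naming rule and after their values were seen.

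Of 12 genes for CTCF, cohesin and related factors, which set the boundaries within HOX clusters, 5 rose and 4 fell (median 0.02). For these and for the retinoid genes below, the background was 33.8% higher and 32.7% lower. RAD21 and SMC1A, cohesin subunits, rose by 0.23 and 0.22 and YY1 fell by 0.29 on the log2 scale, and against a minimum fold of 1.2 their edgeR adjusted p was 0.796, 0.950 and 0.262. Retinoids induce HOX genes in embryonic cells, and of 17 retinoid genes 9 were tested, of which 3 rose and 5 fell (median -0.12). RARG, a retinoic acid receptor, fell to 2.81 ± 0.277 CPM in treated cells, against 13.0 ± 0.0656 CPM in DMSO cells (log2 fold change -2.21, edgeR adjusted p = 3.12e-13). DHRS3, which turns retinal back to retinol, had a log2 fold change of -1.18 and ALDH1A1, a retinal dehydrogenase, of 1.75.

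**Figure D5:**
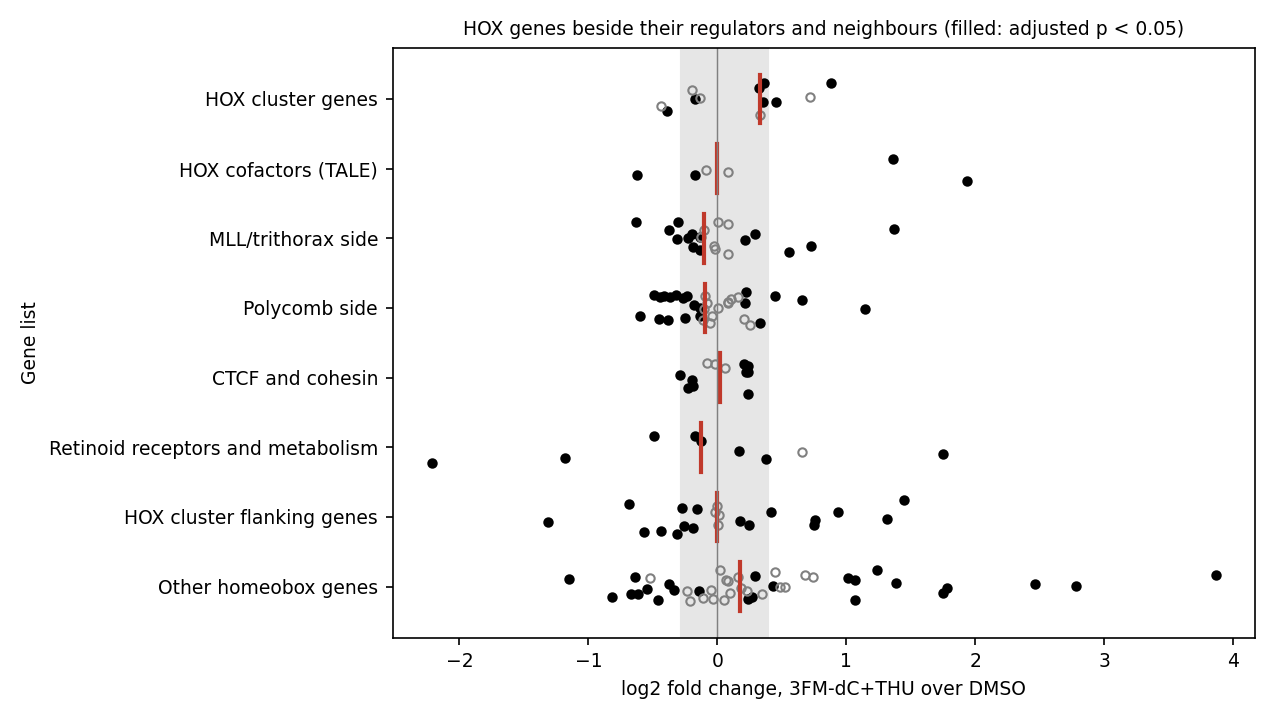
Log2 fold change, 3FM-dC+THU over DMSO, of the tested genes of each list. Filled points passed the edgeR test, open points did not, red lines are medians and the grey band spans the quartiles of all tested genes. The HOX genes span -0.43 to 0.88, while RARG reaches -2.21 and ZFHX2, which passed the count filter through treated libraries only, 3.86.

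Genes that flank the clusters also went both ways. Of 28 listed flanking genes 21 were tested, of which 8 rose and 9 fell, with a median of 0.00, against a background of 33.8% higher and 32.7% lower. Beside HOXB, CALCOCO2 and NFE2L1 rose by 1.31 and 0.94 on the log2 scale, with 1 and 3 other protein-coding genes between them and the cluster in GENCODE. Beside HOXC, NFE2, an erythroid transcription factor with 3 such genes in between, fell to 108 ± 9.28 CPM in treated cells, against 267 ± 4.63 CPM in DMSO cells. Of genes directly next to a cluster, SKAP1 and TTLL6 beside HOXB, EVX1 beside HOXA and EVX2 beside HOXD had at most 1 count in any library. SKAP2 beside HOXA rose by 0.25 and MTX2 beside HOXD fell by 0.26 on the log2 scale. CALCOCO1 beside HOXC rose the most of the tested flanking genes, with 24.4 ± 6.07 CPM in treated and 8.93 ± 0.455 CPM in DMSO cells (log2 fold change 1.45, edgeR adjusted p = 1.26e-10). SMUG1, also beside HOXC, did not pass (log2 fold change -0.02, edgeR adjusted p = 0.845). These directly adjacent genes are named for their position, after their values were seen.

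Homeobox genes outside the HOX clusters included larger fold changes than the HOX genes that passed the count filter, a difference that was not tested. HOXD8, below that filter, is not part of this comparison. Of 111 listed, 44 were tested, of which 14 rose and 10 fell, with a median log2 fold change of 0.17, against a background of 33.8% higher and 32.7% lower. PAX6, a master gene of eye development, reached 17.2 ± 5.59 CPM in treated cells, against 2.53 ± 0.334 CPM in DMSO cells (log2 fold change 2.78, edgeR adjusted p = 7.16e-13). DLX1 and DLX2, forebrain and limb factors, rose by 1.75 and 2.46 on the log2 scale. ZFHX2, named after its values were seen, had the largest value of this list (3.86), at 0.835 ± 0.393 CPM in treated and 0.0523 ± 0.006 CPM in DMSO cells. It passed the count filter through its treated libraries only, so it could not have been tested without being high there.

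Over the 6 libraries, the genes outside the clusters whose log2 CPM followed HOXB9 most closely were TRIM16, CLIP1, JUN, CTNNA1 and IQGAP1 (Pearson's r between 0.9994 and 0.9999, a description over 2 groups of 3 libraries). Such likeness was common, since 524 of 12327 other genes had r of at least 0.99.

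The authors' deposited table compares a group B with a group A without naming them, so the direction relative to treatment is not stated, and lists 25 HOX genes. Its ratio of B over A is infinite for HOXB13, HOXD4 and HOXD9, which had no DMSO count here. It is 0 for HOXA3 and HOXD3, which had no treated count. The authors' deposited table gives 7 of these an adjusted p under 0.05, with HOXB3, HOXB5, HOXB7, HOXB9 and HOXD8 above a ratio of 1 and HOXB2 and HOXB4 below it. In the authors' deposited table HOXB9 has a ratio of 1.36, HOXB4 of 0.756 and HOXD8 of 25.7, while HOXB8, with a ratio of 1.24, has an adjusted p of 0.0561.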

How the data were processed

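RNA-seq libraries of K562 cells, 3 treated and 3 with DMSO, were grouped by the agent in the labels. The authors deposited 1 table of raw counts by gene symbol for every library. Per the submitters' processing notes, STAR, Cufflinks, DESeq2 and hg19 were used, with no role or version stated, and the sources used here do not name the counting program, strand setting or annotation. The rows of 5 unassigned totals stayed out of library sizes and tests (no feature 10.9% to 13.1%, ambiguous 2.27% to 2.38% of all counts). A second table, deposited by the authors, holds fold ratios of group B over group A with p-values, per the file headers, and was only set beside the results here.

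All genes went through edgeR 4.0.16 (quasi-likelihood, R 4.3.3), with TMM scaling, filterByExpr at a minimum count of 10 and treatment as the only term. Benjamini-Hochberg adjustment covered all 12339 tested genes, and calls were two-sided at 0.05. CPM are counts over TMM-scaled library sizes. Fitted 95% intervals are the log2 fold change ± 1.96 SE. Exonic lengths came from GENCODE release 29 (GRCh38), matched by symbol, because no hg19 annotation was at hand, so no gene coordinates are given beyond RefSeq start regions. DESeq2 1.42.0, other scalings, filters, a replicate block, a minimum fold and leaving out each library were alternatives. Replicates of a group differed beyond counting noise (chi-square per degree of freedom 2.38 to 6.22 in genes with at least 20 counts a pair). The fit was tested on simulated data.

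The members and lists were chosen with earlier results of these data known. Named were all HOX genes with at least 10 counts in a library and the 3 tested members of each other list with the smallest p, and others are marked or given by counts. KMT2B and KMT2D could not be matched to a single symbol. A HOX member and a Polycomb gene that this rule or the account of members would name are not reported here.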

Additional observations from a re-analysis of the deposited data

How the results depend on the processing

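The 7 HOX calls were 7 with DESeq2 size factors, with the DESeq2 test and with the replicate block, 6 with total counts or at least 5 CPM, 10 without a filter and 7 to 8 without 1 library. Against a minimum fold of 1.2 they were 3 (2 higher, 1 lower), and the regulators were 22 in place of 55 (53 to 56 without 1 library). Higher HOX genes were 8 in place of 5 without a filter and 5 to 6 without 1 library. Lower ones were 1 with total counts and 1 to 3 without 1 library, HOXB2 being lost without DMSO replicate 3 and HOXB6 gained without treated replicate 3. Expressed HOX genes were 7 at 5 CPM, 14 at 0.5 CPM, and 11 to 13 without 1 library. Scaling by total counts moved the median of all tested genes by 0.09 and the HOXB sum ratio to 0.34, which was 0.23 to 0.25 without 1 library. The HOXC sum ratio of 0.06 turned to -0.0059 per length and to -0.023 without DMSO replicate 3, within -0.023 to 0.17 without 1 library. HOXC8 turned to 0.13 without treated replicate 1, within -0.48 to 0.13 without 1 library. The causes were not tested. Same-numbered libraries had deviations correlated between -0.055 and 0.001, so no shared deviation by number was seen. Whether same-numbered samples were made together cannot be told from these values. The replicate block left the count of HOX calls at 7. At this depth genes at 0 are limited to 0.168 CPM per library.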
